A study of Mus musculus with 2 samples.

Results

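The mitochondrial genome of the mouse encodes 2 ribosomal RNAs, 22 transfer RNAs and 13 messenger RNAs, and all 37 genes were rows of the deposited count table of dentate gyrus cells. They were chosen by their names, which begin with mt, among 15474 genes in all, without use of their values. The rRNA and tRNA rows carry a hyphen (mt-Rnr2) and the mRNA rows do not (mtNd5), and these spellings are kept here. Cells of the dentate gyrus, the hippocampal region in which neurons are born throughout life, were sequenced by SORT-seq, a plate-based method with 1 sorted cell per well. The oligo-dT primer of a well carries the barcode of that well and a unique molecular identifier (UMI), a random tag by which copies of the same molecule are counted once. The first plate held fresh cells pooled from 3 C57BL/6J mice, and the other held cells from 4 such mice, likewise pooled, that were fixed in methanol (MeOH), stored for 3 weeks and rehydrated. All mice were 4 to 5 weeks old, and each plate had 384 barcodes, of which 8 belonged to wells without a cell. Dead cells were stained with Sytox and left out when the fresh cells were sorted, and no such stain was used for the MeOH-fixed cells. Each group is thus 1 library, and fixation, storage, plate, mice and sorting gate cannot be told apart. No test was made, and intervals are exact 95% intervals that cover counting error only.

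Mitochondrial genes are transcribed from both strands of a circular genome into long precursors, and most rRNAs and mRNAs are released when the tRNAs between them are cut out. The mRNAs receive a short poly(A) tail, which in some of them completes the stop codon, while the tRNAs receive CCA at the 3′ end and the rRNAs carry at most a few A. The 13 proteins are core subunits of respiratory complexes I, III, IV and V, and the rRNAs form the core of the ribosome that makes them. In single-cell sequencing a high percentage of mitochondrial counts is widely read as a mark of damaged cells.

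Because an oligo-dT primer can anneal at a tail or within a gene, the 3′ ends of the rRNAs and of 7 mRNAs are shown first. The mRNAs include ones with lower shares in MeOH-fixed cells, mtNd4l, mtNd5 and, with overlapping intervals from few UMIs, mtNd6. Others had higher shares (mtCo2, mtNd3, mtCo3) or a like share (mtCytb), and mtCo3 and mtCytb also show an incomplete stop codon. All lie on the mitochondrial chromosome of GRCm38, and the sequences are those of GENCODE vM21 transcripts. Each line gives the last 30 bases, 5′ to 3′, and capitals mark the last codon or the part of it that is encoded.
mt-Rnr1 (12S rRNA, chrM:995-1024, plus strand): aagcatactggaaagtgtgcttggaataat
mt-Rnr2 (16S rRNA, chrM:2646-2675, plus strand): atacgtacaccctctaacctagagaaggtt
mtNd4l (chrM:10144-10173, plus strand): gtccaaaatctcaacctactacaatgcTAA
mtNd5 (chrM:13536-13565, plus strand): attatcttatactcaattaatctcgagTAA
mtNd6 (chrM:13552-13581, minus strand): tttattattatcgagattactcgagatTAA
mtCo2 (chrM:7667-7696, plus strand): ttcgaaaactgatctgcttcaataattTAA
mtNd3 (chrM:9777-9806, plus strand): acacaaaaaggattagaatgaacagagTAA
mtCo3 (chrM:9361-9390, plus strand): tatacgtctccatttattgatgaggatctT
mtCytb (chrM:15259-15288, plus strand): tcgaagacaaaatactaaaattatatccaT
In 3 of the 13 mRNAs, mtCo3, mtNd4 and mtCytb, the annotation ends inside a codon, with a single T.

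Some neighbouring genes overlap. The reading frame of mtAtp8 runs into that of mtAtp6, and that of mtNd4l into that of mtNd4, and each of these pairs is carried by a single RNA. Counts were made by gene, so that reads within the shared bases cannot be told apart, and mtNd5 and mtNd6 share 14 bases on opposite strands. Capitals mark the shared bases, which begin with the start codon of the second gene.
mtAtp8 and mtAtp6 (43 shared bases, chrM:7907-7989 shown, plus strand): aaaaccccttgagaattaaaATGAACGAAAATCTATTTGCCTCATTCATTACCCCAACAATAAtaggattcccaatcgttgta
mtNd4l and mtNd4 (7 shared bases, chrM:10147-10193 shown, plus strand): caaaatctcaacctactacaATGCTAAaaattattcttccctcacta
The longest runs of A inside 5 of the genes are shown in capitals, with 20 bases on either side. Those of mt-Rnr1 (5 A) and mtNd4l (4 A), which also had lower shares in MeOH-fixed cells, were left out of these lines.
mt-Rnr2 (7 A, chrM:1468-1514, plus strand): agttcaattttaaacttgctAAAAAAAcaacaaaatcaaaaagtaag
mtNd5 (7 A, chrM:12616-12662, plus strand): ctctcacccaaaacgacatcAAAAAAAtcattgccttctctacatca
mtCo1 (7 A, chrM:6096-6142, plus strand): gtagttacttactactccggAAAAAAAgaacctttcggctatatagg
mtNd2 (8 A, chrM:4032-4079, plus strand): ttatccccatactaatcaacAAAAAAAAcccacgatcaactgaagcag
mtAtp6 (5 A, chrM:8269-8313, plus strand): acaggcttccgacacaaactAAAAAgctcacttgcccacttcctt

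After the filter of the authors, 64 fresh and 132 MeOH-fixed barcodes remained, here called passing cells or passing barcodes. The fresh cells held 534122 UMIs and the MeOH-fixed cells 729018 UMIs, with medians of 6318 and 3452 UMIs per cell. The mitochondrial UMIs happened to be close in number, 74331 in fresh and 74300 in MeOH-fixed cells, with medians of 979 and 426 per cell. They were 13.9% (13.8 to 14.0) of all UMIs on the fresh and 10.2% (10.1 to 10.3) on the MeOH-fixed plate, with a log2 ratio, MeOH-fixed over fresh, of -0.45. This difference depended on how cells were weighted, and was -0.07 when the 8 cell identities of the authors counted equally. The marker genes of an identity were highest in that identity for 8 of 8 identities in MeOH-fixed cells and for 6 of 8 in fresh cells. These are the markers by which the authors named the identities in these same cells. High values in the own identity are thus partly built in and are no independent check of the labels. In the 2 fresh cells annotated as mature neurons, 4 of 5 mature neuron markers were at 0, so that the label is not borne out there. Values are also given without the mature neurons of both plates, fresh and MeOH-fixed. This was not done for equal weights, in which these 2 fresh cells count as a whole identity. Their pooled mitochondrial share was 6.61%, against 14.2% in MeOH-fixed mature neurons. The markers of immature neurons in fresh cells were at 1550.5 CPM (UMIs per 1000000 UMIs of those cells) in their own identity and at 1639 CPM in nIPCs and neuroblasts. The barcode set is the same on both plates, and 24 well numbers passed on both.

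Composition differed more than the total. The rRNAs made up 27.2% (26.8 to 27.5) of the mitochondrial UMIs of fresh and 15.9% (15.6 to 16.1) of those of MeOH-fixed cells (log2 ratio -0.78). The mRNAs made up 72.8% (72.4 to 73.1) and 84.1% (83.8 to 84.3). The tRNAs gave 56 UMIs in fresh cells and 45 UMIs in MeOH-fixed cells, that is 0.0753% (0.0569 to 0.0978) and 0.0606% (0.0442 to 0.0810), and these intervals overlap. The shares of the 37 genes add up to the whole, so that a lower share of one class goes with a higher share of the others.

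Of the rRNAs, mt-Rnr2, the 16S rRNA of the large subunit, was the gene with most mitochondrial UMIs in fresh cells, at 20.4% of them, and was at 11.6% in MeOH-fixed cells (log2 ratio of shares -0.81). The small subunit 12S rRNA, mt-Rnr1, was at 6.80% and 4.26% (-0.67). In single fresh cells the share of mt-Rnr2 ran from 5.63% over a median of 21.0% to 48.0%, and in single MeOH-fixed cells from 1.75% over 11.2% to 32.3%. The ranges overlap widely, but 125 of 132 MeOH-fixed cells lay below the fresh median. The proportion of mt-Rnr1 among the rRNA UMIs was 25% (24.4 to 25.6) on the fresh and 26.9% (26.1 to 27.7) on the MeOH-fixed plate.

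Among the 7 mRNAs of complex I, the NADH dehydrogenase, shares differed in both directions. The share of mtNd5 was 4.13% in fresh and 1.76% in MeOH-fixed cells (log2 ratio -1.23). The share of mtNd4l was 1.51% and 0.689% (-1.13). In the case of mtNd6, the only mRNA encoded on the light strand, 26 and 12 UMIs were counted. These were 0.0350% (0.0229 to 0.0512) and 0.0162% (0.00835 to 0.0282), and the intervals overlap. By contrast mtNd3 was at 1.81% and 3.27% (0.85), mtNd1 at 4.44% and 6.26% (0.49) and mtNd2 at 7.37% and 8.64% (0.23). The share of mtNd4 was close in both, at 9.56% and 9.25% (-0.05), although it is carried by the same RNA as mtNd4l. Of the UMIs of that pair, mtNd4l held 13.6% (12.9 to 14.4) in fresh and 6.93% (6.36 to 7.53) in MeOH-fixed cells.

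In complex IV, cytochrome c oxidase, mtCo1 went the other way from its partners. The share of mtCo1, which encodes the catalytic subunit, was 8.41% in fresh and 6.34% in MeOH-fixed cells (-0.41), while mtCo2 was at 6.94% and 11.3% (0.71) and mtCo3 at 3.72% and 5.48% (0.56). Both subunits of complex V, the ATP synthase, had higher shares in MeOH-fixed cells. The share of mtAtp6 was 13.3% and 18.6% (0.49), which made it the gene with most mitochondrial UMIs in MeOH-fixed cells, and mtAtp8 was at 1.07% and 1.99% (0.89). Cytochrome b of complex III, mtCytb, was at 10.5% in both (-0.01). As parts of the mitochondrial mRNA, complex I was at 39.7% (39.2 to 40.1) in fresh and 35.5% (35.2 to 35.9) in MeOH-fixed cells, complex III at 14.4% and 12.4%, complex IV at 26.2% and 27.5%, and complex V at 19.7% (19.4 to 20.0) and 24.5% (24.1 to 24.8).

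**Figure D1:**
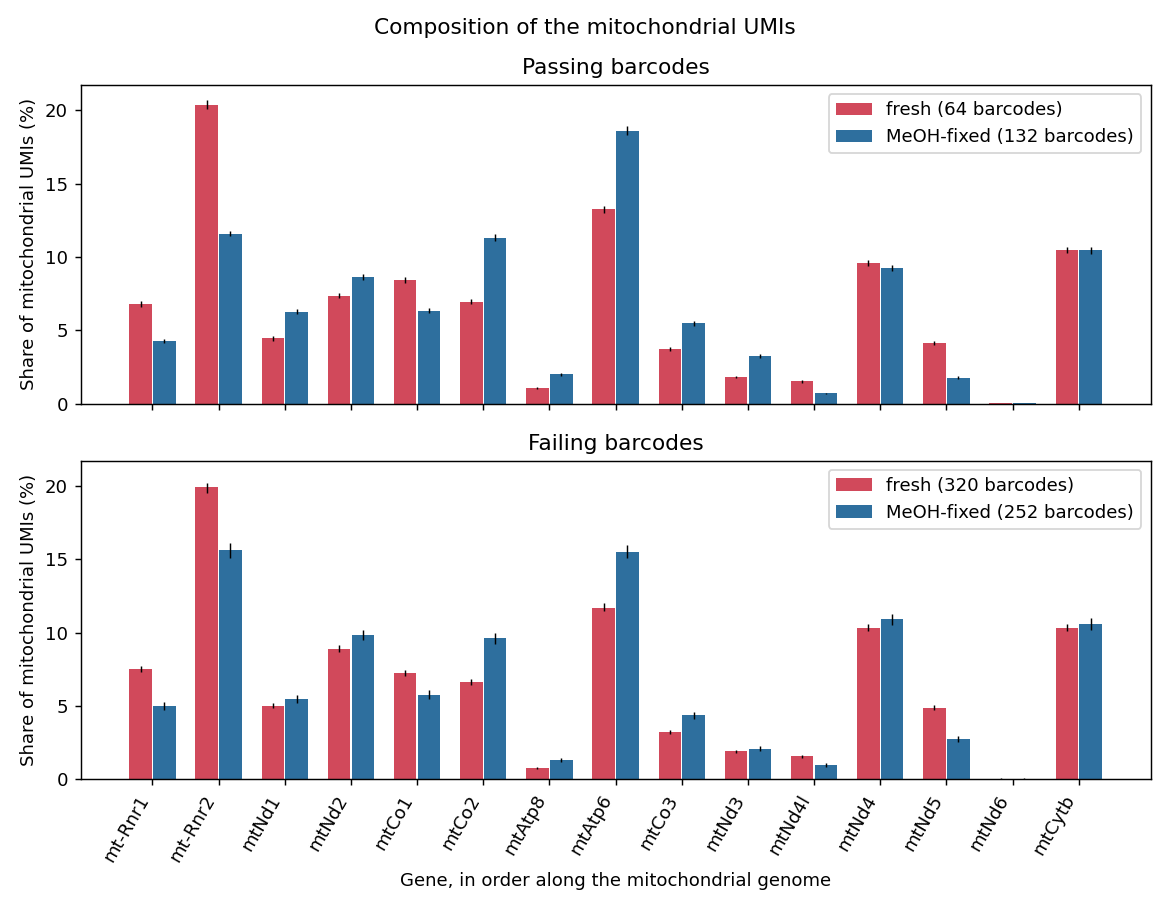
Share of the mitochondrial UMIs (%) held by each rRNA and mRNA gene, in order along the genome, in passing (top) and failing (bottom) barcodes of the fresh and MeOH-fixed plate. Bars are pooled shares and error bars exact 95% intervals for counting error; mt-Rnr2 is at 20.4% and 11.6% in passing fresh and MeOH-fixed cells, and mtAtp6 at 13.3% and 18.6%.

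Per cell, mtNd5 ran from 0% over a median of 3.54% to 10.2% of the mitochondrial UMIs in fresh cells and from 0% over 1.57% to 14.2% in MeOH-fixed cells, and 119 of 132 MeOH-fixed cells lay below the fresh median. For mtNd4l the medians were 1.27% and 0.303%, and it was at 0 in 7 of 64 fresh and 42 of 132 MeOH-fixed cells, which also had fewer mitochondrial UMIs per cell. The share of mtCo2 ran from 2.04% over 7.15% to 12.7% in fresh cells and from 5.11% over 11.3% to 22.7% in MeOH-fixed cells, and 121 of 132 MeOH-fixed cells lay above the fresh median. For mtAtp6 123 of 132 MeOH-fixed cells did so, at medians of 13% and 18.5%. Single cells of both plates thus overlapped for each of these genes, with medians set apart.

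Levels were compared between genes as UMIs per kilobase of annotated length, over the passing cells of a plate. On this scale mtAtp6 was first on both plates, with 14483 UMIs per kb in fresh and 20297 in MeOH-fixed cells. The place of mt-Rnr2 among the 15 rRNA and mRNA genes was 2 in fresh cells (9566 UMIs per kb) and 7 in MeOH-fixed cells (5444). That of mt-Rnr1 was 5 (5294) and 11 (3317). The last places were held on both plates by mtNd5 (1685 and 718) and mtNd6 (50.1 and 23.1). Genes of the light strand, mtNd6 and 8 tRNAs, together gave 34 UMIs on the fresh and 23 UMIs on the MeOH-fixed plate, and the 28 genes of the heavy strand gave all others.

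In CPM over all passing cells, which sets each gene against the whole transcriptome, 14 of the 37 genes met a filter of at least 200 UMIs over both plates and a UMI in at least 10% of the cells of one. These were both rRNAs and every mRNA but mtNd6. A CPM at least 2-fold lower in MeOH-fixed cells was seen for 4 of the 14, against 4.40% of all 1022 genes that met the filter, and a CPM at least 2-fold higher for 0 of 14, against 12.7%. Intervals of CPM stood apart for 8 members that were lower (16.4% of all genes) and 4 that were higher (36.2%). The median log2 ratio of CPM was -0.34 over the 14 members and 0.24 over all genes tested. This is a description of the plates, since the 14 genes share their precursors and are not independent.

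The genes past 2-fold were mtNd5, from 5753 CPM (5552 to 5960.5) in fresh to 1796 CPM (1699.6 to 1896) in MeOH-fixed cells (log2 ratio of CPM -1.68), mtNd4l, from 2097 CPM to 702 CPM (-1.58), mt-Rnr2, from 28334 CPM to 11813 CPM (-1.26), and mt-Rnr1, from 9466 CPM to 4346 CPM (-1.12). Next was mtCo1, from 11699.6 CPM to 6461 CPM (-0.86). With identities weighted equally, 2 genes remained past 2-fold, mtNd5 (-1.16) and mtNd4l (-1.10), while mt-Rnr2 was at -0.78 and mt-Rnr1 at -0.42. The highest ratios were those of mtAtp8 (0.44), mtNd3 (0.40) and mtCo2 (0.26), and with equal weights these were 0.84, 0.89 and 0.67. Equal weights also turned mtNd2, one of the 8 members that were lower, from -0.22 to 0.22. All of these equal-weight ratios count the 2 fresh cells labelled mature neurons as much as any other identity. Scaling to the median of all genes shifted every ratio by -0.24, so that mtCo1 was also past 2-fold (-1.10), mtCo2 was at 0.02, and mtAtp6 (0.04), mtCo3 (0.11) and mtNd1 (0.04) turned to -0.20, -0.13 and -0.19. The last of these, like mtAtp6, also changed sign when nuclear UMIs alone were the total, at -0.02 for each. Without the mature neurons of both plates, mtAtp6 was at -0.04 and mtNd1 at -0.05, and the same 4 genes were past 2-fold.

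**Figure D2:**
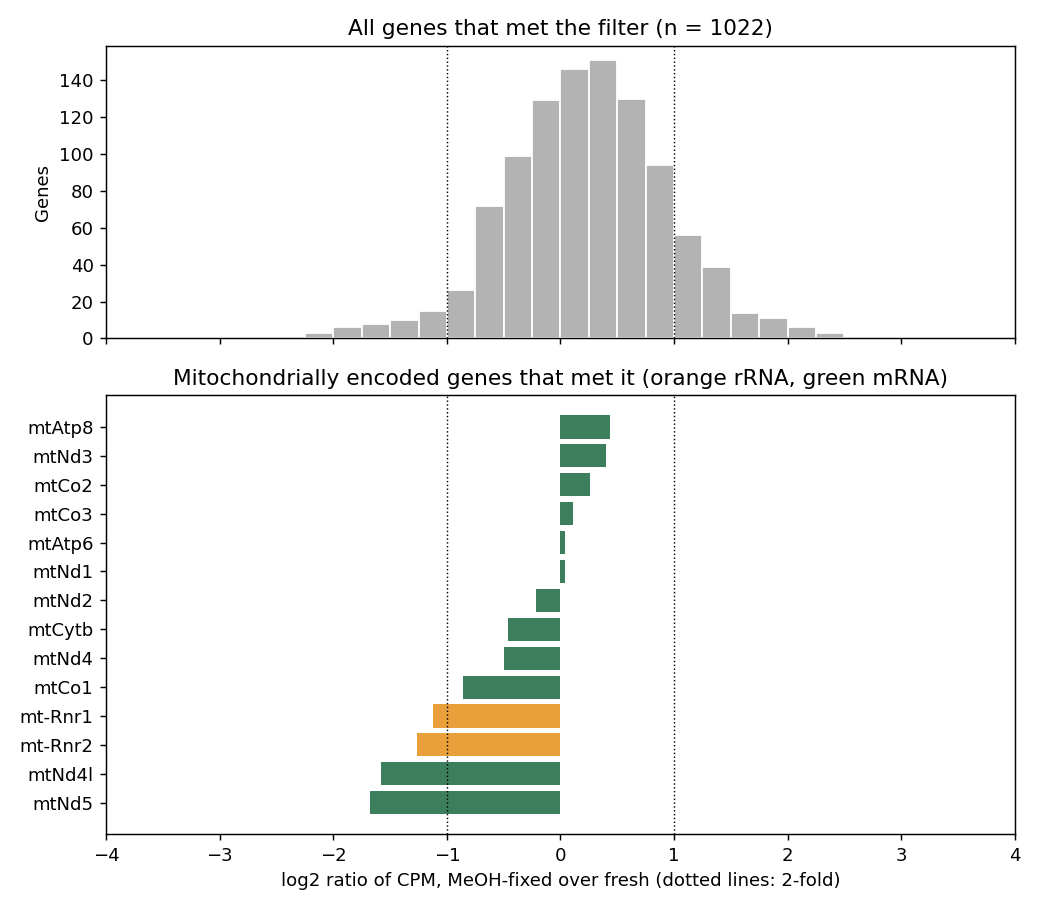
Log2 ratio of CPM, MeOH-fixed over fresh, as a histogram of all 1022 genes that met the filter (top) and as bars for the 14 mitochondrially encoded genes among them (bottom, rRNA in orange, mRNA in green). Dotted lines mark 2-fold; mtNd5, mtNd4l, mt-Rnr2 and mt-Rnr1 lie left of the lower line and no member right of the upper one.

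The lower rRNA share was then examined by cell identity. The MeOH-fixed cells had the lower share in 8 of 8 identities, with intervals apart in each, and in 7 of 7 without mature neurons. In astrocytes and RGLs it was 27.3% (26.7 to 27.9) for 18 fresh and 19.8% (19.2 to 20.5) for 29 MeOH-fixed cells. In nIPCs and neuroblasts it was 27.9% in 16 cells and 17.4% in 21 cells. The share of immature neurons was 22.6% in 5 cells and 10.7% (10.3 to 11.1) in 25 cells. Oligodendrocytes, with 2 and 13 cells, were at 17.8% and 10.8% (10.1 to 11.5), which is not apart from immature neurons on the MeOH-fixed plate, and OPCs, with 5 and 10 cells, at 28.5% and 15.8%. Microglia were at 31.3% in 10 cells and 20.2% in 7 cells, and endothelial cells at 32.4% in 6 cells and 25.9% in 8 cells, the highest among MeOH-fixed cells. The 2 fresh cells labelled mature neurons were at 48.1%, with 17% in one and 55.1% in the other, and the 19 MeOH-fixed cells at 17.9%. Single cells of both plates overlapped within each identity.

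**Figure D3:**
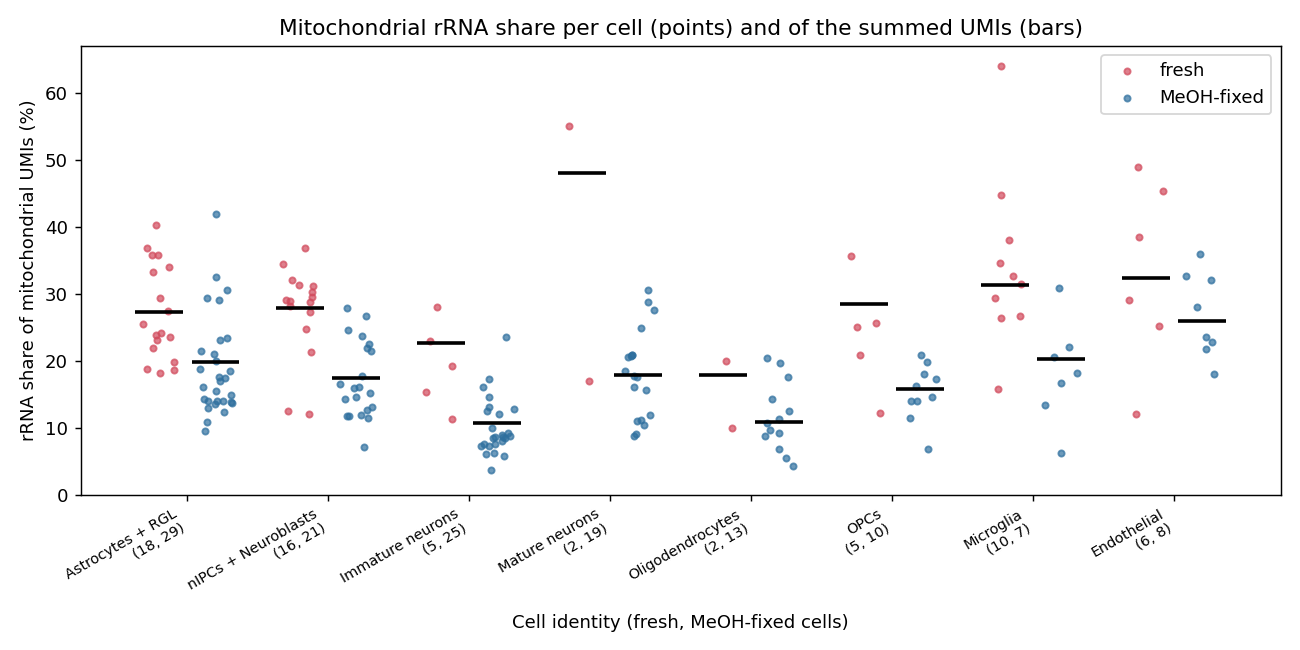
rRNA share of the mitochondrial UMIs (%) in each passing cell (points) by cell identity, with the share of the summed UMIs as a black bar; numbers below the names are fresh and MeOH-fixed cells. The bar is lower for MeOH-fixed than for fresh cells in 8 of 8 identities. For example, fresh and MeOH-fixed cells are at 27.3% and 19.8% in astrocytes and RGLs and at 32.4% and 25.9% in endothelial cells.

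Over all identities the rRNA share per cell ran from 10.0% over a median of 27.7% to 64.0% in 64 fresh cells and from 3.73% over 15.0% to 41.9% in 132 MeOH-fixed cells. Of the fresh cells 58 lay above the MeOH-fixed median, and of the MeOH-fixed cells 119 lay below the fresh median. In MeOH-fixed cells the share went with depth, with a Spearman's rho of -0.371 with the UMIs of a cell and 0.422 with its percentage of mitochondrial UMIs. In fresh cells these were 0.0622 and -0.0218. The points are cells of 1 library each, and the same counts enter both measures. Within cells of like depth, MeOH-fixed cells had the lower share in each of 4 strata, with 30.0% against 18.8% at 2000 to 4000 UMIs and 27.2% against 11.8% at 8000 UMIs or more. In the shallowest, 800 to 2000 UMIs, it was 22.3% (20.6 to 24.1) in 7 fresh and 19.2% (18.4 to 20.1) in 28 MeOH-fixed cells. Within cells of like mitochondrial percentage it was 25.4% against 12.4% below 10%, 30.2% against 15.9% from 10% to 20%, and 24.2% against 19.8% above. Neither these strata nor the correlations were matched for cell identity. Immature neurons of the MeOH-fixed plate had a median of 11563 UMIs and a pooled rRNA share of 10.7%. All MeOH-fixed cells together had a median of 3452 UMIs and a pooled share of 15.9%.

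The single genes kept to these directions to different degrees. For mt-Rnr2 the share was lower on the MeOH-fixed plate in 8 of 8 identities, from -0.52 in astrocytes and RGLs to -1.53 in mature neurons, and that of mtNd5 in 8 of 8, from -0.20 in endothelial cells, where intervals overlap, to -1.64 in oligodendrocytes. For mtNd4l intervals stood apart in 5 identities, each lower, and endothelial cells were at 0.850% and 0.848%. The shares of mtAtp6, mtAtp8, mtCo2, mtCo3, mtNd2 and mtNd3 were higher in 8 of 8 identities, with intervals apart in 8, 7, 8, 6, 6 and 7 of them. In CPM, which other RNAs of a cell also enter, 2 members were lower in 8 of 8 identities, mt-Rnr2 and mtNd5, against 0.391% of the 1022 genes, and 4 in at least 7, against 1.86%. A higher CPM in at least 7 identities was seen for 3 members, mtAtp8, mtCo2 and mtNd3, against 16.3% of all genes, and in 8 of 8 for 0 members, against 4.01%.

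**Figure D4:**
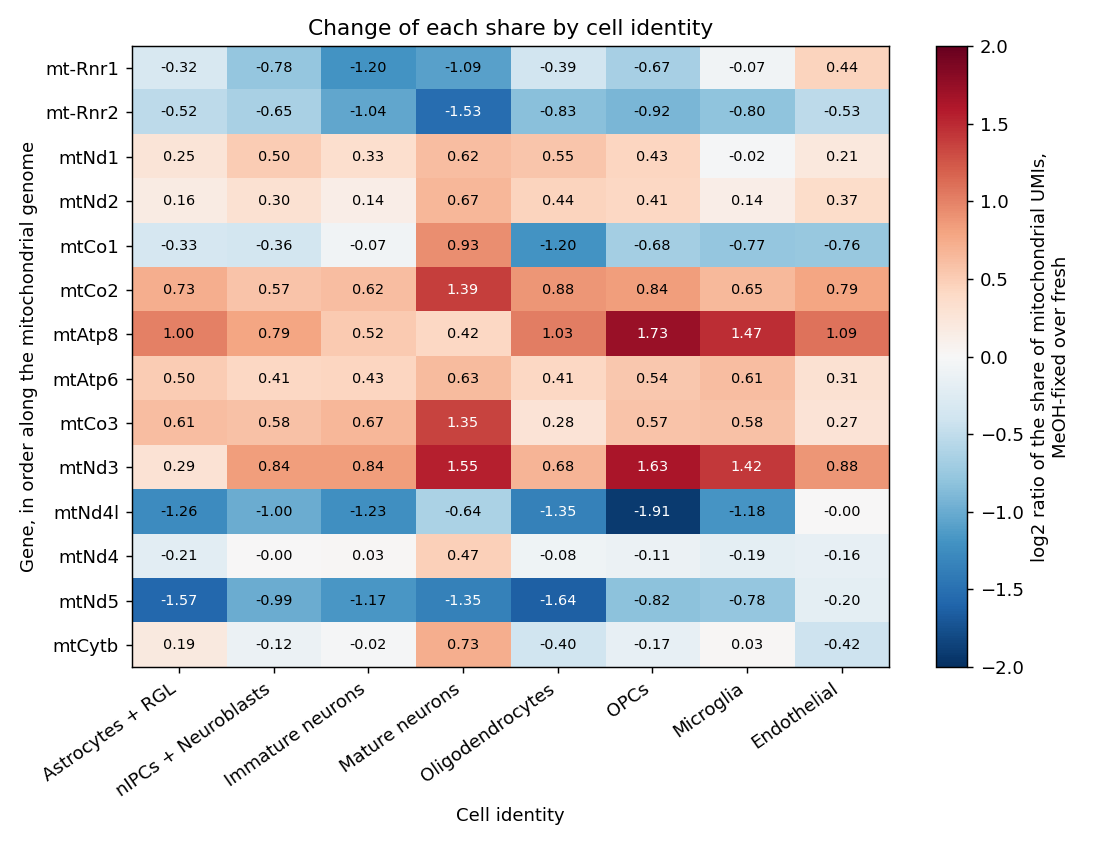
Log2 ratio of each gene's share of the mitochondrial UMIs, MeOH-fixed over fresh, for 14 genes in genome order (rows) and 8 cell identities (columns), with red for higher and blue for lower in MeOH-fixed cells. The rows of mt-Rnr2 and mtNd5 are blue throughout, that of mtAtp6 is red throughout, and mtCo1 is at 0.93 in mature neurons and at -1.20 in oligodendrocytes.

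Barcodes that failed the filter were 320 on the fresh and 252 on the MeOH-fixed plate, and include the wells without a cell, whose position was not used. They held 57397 mitochondrial UMIs of 140164 UMIs (40.9%) on the fresh plate and 24054 of 83655 (28.8%) on the MeOH-fixed plate. On the fresh plate their rRNA share was 27.4% (27.0 to 27.8), against 27.2% in passing cells, and on the MeOH-fixed plate 20.6% (20.1 to 21.1) against 15.9%. The latter difference, a log2 ratio of 0.38, belongs to the summed UMIs and was -0.04 for the mean of the per-barcode shares. The directions between the plates were those of the passing cells for both rRNAs, mtNd5, mtNd4l and mtCo1 (lower) and for mtAtp6, mtAtp8, mtCo2 and mtCo3 (higher). The log2 ratio of the share was -0.83 for mtNd5, -0.71 for mtNd4l, -0.35 for mt-Rnr2 and 0.54 for mtCo2 in failing barcodes. The log2 ratios of mtNd4 (0.08) and mtCytb (0.04) were near 0, as in passing cells, with the other sign. For mtNd3, at 1.90% (1.79 to 2.01) and 2.09% (1.91 to 2.28), intervals overlap in failing barcodes, unlike in passing cells.

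The rRNA share varied with the number of UMIs of a barcode. In barcodes with under 50 UMIs it was 16% (12.2 to 20.3) on the fresh and 9.77% (5.80 to 15.2) on the MeOH-fixed plate. On the fresh plate it was 37.3% at 100 to 200 UMIs, 36.7% at 200 to 400 UMIs and 21.0% at 1600 to 3200 UMIs, and 26.6% above. On the MeOH-fixed plate it lay between 19.1% and 21.8% in the 5 bins from 100 to 3200 UMIs and was 14.6% above. It was lower on the MeOH-fixed plate in 8 of 8 bins, with overlapping intervals in the first. These bins hold failing and passing barcodes together, in unlike proportions on the plates. From 1600 to 3200 UMIs, 7 of 14 fresh and 51 of 56 MeOH-fixed barcodes passed. Barcodes that failed and passed could be set side by side in 2 bins. From 800 to 1600 UMIs, 23 failing and 5 passing fresh barcodes had rRNA shares of 24.6% (23.8 to 25.3) and 35.4% (31.8 to 39.2), with 53.7% and 10.1% mitochondrial UMIs. In the same bin of the MeOH-fixed plate, 16 failing and 11 passing barcodes were at 20.7% (19.7 to 21.9) and 18.6% (16.9 to 20.3), and these intervals overlap. From 1600 to 3200 UMIs, 7 failing and 7 passing fresh barcodes were at 20.3% (19.6 to 21.1) and 22.9% (21.5 to 24.3), with 82.1% and 22.7% mitochondrial UMIs. The failing fresh barcodes thus had the lower rRNA share in both bins. On the MeOH-fixed plate, 5 failing and 51 passing barcodes of that depth were at 23.0% (21.0 to 25.1) and 18.7% (18.2 to 19.3), with 15.8% and 17.7% mitochondrial UMIs. Among failing barcodes of that depth, the MeOH-fixed plate thus had the higher rRNA share, with overlapping intervals.

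**Figure D5:**
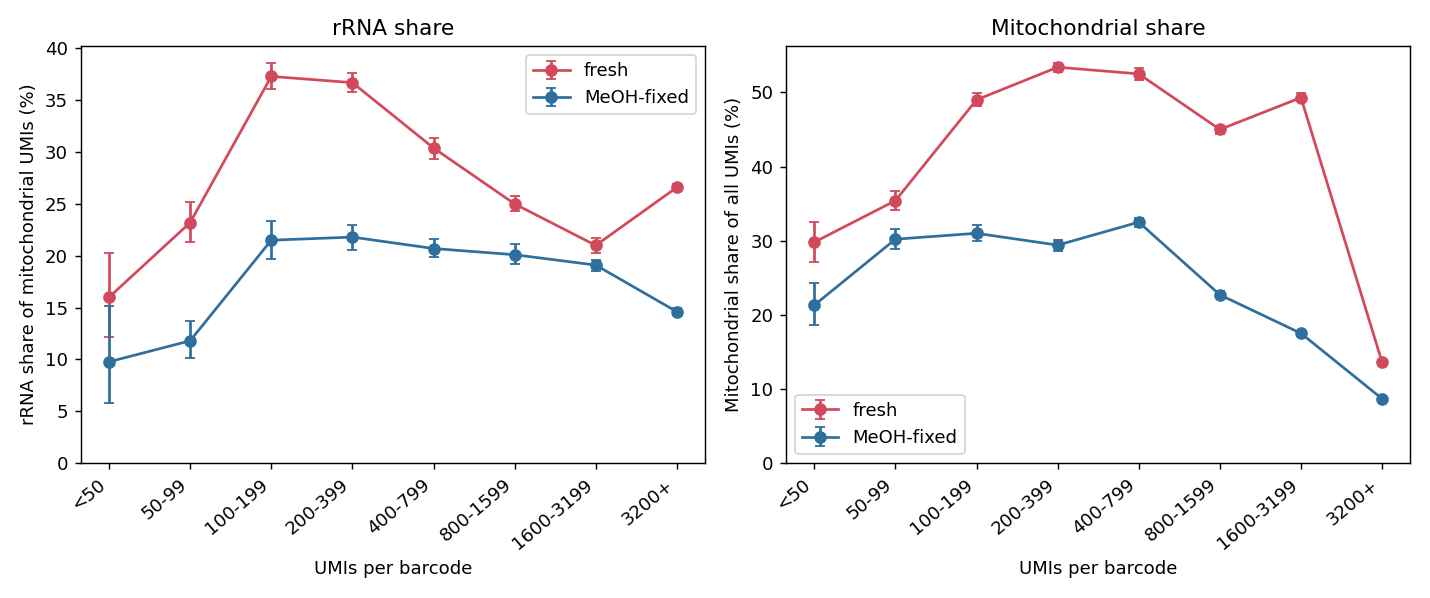
rRNA share of the mitochondrial UMIs (left, %) and mitochondrial share of all UMIs (right, %) by the number of UMIs per barcode, for all 384 barcodes of each plate; error bars are exact 95% intervals for counting error. The fresh plate reaches 37.3% rRNA at 100 to 200 UMIs per barcode, and the MeOH-fixed plate stays below it in each bin.

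The tRNAs, adaptors between codon and amino acid with genes of 59 to 75 bases, were almost absent from these libraries. The reason for this was not tested. The 22 genes gave 230 UMIs in 149 of 768 barcodes, passing and failing, and none reached 200 UMIs. Fewer than 10 UMIs were counted for 16 of them. In passing cells 7 had no UMI on the fresh and 10 on the MeOH-fixed plate, and a count of 0 allows up to 3 UMIs, or 5.62 CPM and 4.12 CPM. A pair of tRNA genes, chosen after their values were seen, held most of the UMIs. The tRNA of methionine, mt-Tm, had 109 UMIs in 83 barcodes, with 21 in passing and 34 in failing barcodes of the fresh plate and 21 and 33 of the MeOH-fixed plate. The tRNA of tryptophan, mt-Tw, had 28 UMIs, with 10, 9, 6 and 3 in that order. The gene of mt-Tm ends directly before mtNd2 and that of mt-Tw shares 2 bases with the end of mtNd2. Their sequences are given with the longest run of A in capitals.
mt-Tm (chrM:3845-3913, plus strand): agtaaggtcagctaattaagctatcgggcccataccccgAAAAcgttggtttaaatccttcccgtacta
mt-Tw (chrM:4950-5016, plus strand): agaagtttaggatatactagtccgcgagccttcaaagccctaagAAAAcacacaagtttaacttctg
mt-Tr (chrM:9808-9875, plus strand): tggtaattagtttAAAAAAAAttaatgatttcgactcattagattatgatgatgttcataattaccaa
The tRNA of arginine, mt-Tr, is shown because its run of 8 A equals the longest of any of the 37 genes, that of mtNd2, and it had 2 UMIs in all. In failing barcodes the tRNA share was 0.117% (0.0905 to 0.148) on the fresh and 0.258% (0.198 to 0.330) on the MeOH-fixed plate. The latter lies above the share in passing MeOH-fixed cells, and rests on 62 UMIs.

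The longest run of A was 7 A in mt-Rnr2 and mtNd5, 5 A in mt-Rnr1 and 4 A in mtNd4l, the genes past 2-fold in CPM. In the other 10 genes that met the filter it ranged from 4 to 8 A, with 7 A in mtCo1. The part of such runs in the differences was not tested. The longest run began far from the 3′ end in mt-Rnr2, with 1181 bases after it, and in mtNd5, with 923. The same held for mtCytb (1125 bases) and mtNd4 (1120), with like shares on both plates, and for mtNd2 (892), with a higher share in MeOH-fixed cells. In mtCo2 (4 A) and mtNd3 (5 A), which had higher shares in MeOH-fixed cells, 22 and 21 bases followed the run, and 22 bases also followed it in mtNd4l, which had a lower share. Where within a gene the reads began was not part of the counts used here.

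Close copies of 7 members lie in the nuclear genome. Annotated pseudogenes at chr1:24611535-24616197 (GRCm38, minus strand) are at least 99% identical over at least 100 bases to mtCo1, mtCo2, mtAtp6, mtCo3, mtNd3, mtNd4l and mtNd4, and 100% identical to mtCo2 over 681 bases. None of them is listed in the counts. Reads that map equally well to several places were discarded by the authors, and the part of this in the level of those 7 genes was not tested. Only annotated nuclear transcripts were searched, and hits on another chromosome were left out, so that further copies are not excluded. Among the 7, mtCo2, mtAtp6, mtCo3 and mtNd3 had higher and mtCo1 and mtNd4l lower shares in MeOH-fixed cells, and mtNd4 a like share. The rRNAs and mRNAs with no listed copy also went both ways. Both rRNAs and mtNd5 had lower shares, mtAtp8, mtNd1 and mtNd2 higher shares, and mtCytb a like share. The share of mtNd6 was also lower, but with overlapping intervals.

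Nuclear genes that act on the mitochondrial RNAs were at low levels. Of 47 genes of mitochondrial transcription and RNA maturation 45 were in the table, with 1029.7 CPM (945 to 1119) in fresh and 1045 CPM (972 to 1122) in MeOH-fixed cells in sum. The 17 mitochondrial aminoacyl-tRNA synthetases, which charge the tRNAs, had 932 CPM (852 to 1018) and 860.1 CPM (794 to 930.1), and Lars2, the leucyl-tRNA synthetase, held most of it with 702 CPM and 631 CPM. The 76 mitochondrial ribosomal proteins had 2645 CPM (2509 to 2787) and 3269 CPM (3139 to 3403), a log2 ratio of 0.31, beside the 0.24 of the median gene. Of these lists 0, 1 and 0 genes met the filter. The 1 gene was Lars2, which was within 2-fold (log2 ratio of CPM -0.15), and no call was made for the others.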

How the data were processed

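Per the labels and the methods of the study, the authors mapped SORT-seq reads with STAR to GRCm38, discarded reads with several equally good positions, and counted UMIs per gene and barcode. The authors deposited expected counts, which correct each UMI count for collisions among 4096 possible UMIs, for all barcodes and for passing cells. For the latter the authors also deposited the percent of mitochondrial counts and the cell identity (R 4.2.0, Seurat 4.1.0). Their filter kept 800 to 35000 transcripts and more than 500 genes, beside limits on spike-ins and on transcripts per gene. Doublets were not called here.

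The adjustment was inverted, which gave whole UMIs to within 3.64e-12. The largest member value in one barcode was 678 UMIs, or 16.6% of those possible. Shares have exact Clopper-Pearson and CPM exact Poisson intervals (95%). With 1 library per group no test was made. The 2-fold calls, the share intervals and the inversion were tested on simulated counts without variation between cells. Other steps were not tested in this way. The members and gene lists were chosen with earlier results of these data known. All 37 genes were to be described, tRNAs under 200 UMIs by range. Sequences and positions came from GENCODE vM21 transcripts on GRCm38, matched for all 37 genes, and nuclear copies from BLAST 2.17.0. Python 3.11.15 was used with scipy 1.17.1, numpy 2.4.6, matplotlib 3.10.9 and pandas 2.3.3.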

Additional observations from a re-analysis of the deposited data

Results flagged for a closer look

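Some shares of the mitochondrial UMIs moved in opposite directions in different cell identities, with intervals apart in each, and these differences between identities were not tested. The log2 ratio of the share of mt-Rnr1, MeOH-fixed over fresh, was 0.44 in endothelial cells and -1.20 in immature neurons. For mtCo1 it was 0.93 in mature neurons and -1.20 in oligodendrocytes, for mtCytb 0.73 in mature neurons and -0.42 in endothelial cells, and for mtNd4 0.47 in mature neurons and -0.21 in astrocytes and RGLs. The mitochondrial share of all UMIs had a log2 ratio of 1.10 in mature neurons and -1.09 in oligodendrocytes. All of the values for mature neurons and oligodendrocytes rest on 2 fresh cells each, and in those labelled mature neurons 4 of 5 markers were at 0.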

How the results depend on the processing

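Of 41 alternatives to 8 results, 25 stayed within the interval of the main value (for counts, within 1.5 times), 15 moved and 1 turned the direction. The log2 ratio of the mitochondrial share of UMIs (-0.45) was -0.22 for the mean of the per-cell shares and -0.07 for the mean over identities. It was -0.52 for cells with under 25% mitochondrial UMIs and -0.20 after thinning each cell to 800 UMIs. Without the mature neurons of both plates, an alternative chosen after seeing the data, it was -0.54. That of the rRNA share (-0.78) was -0.96 below 25% mitochondrial UMIs and -0.59 after thinning. That of the mRNA share (0.21) was 0.23 over identities, 0.25 below 25% and 0.17 after thinning. That of the tRNA share (-0.31, within an interval from -1.15 to 0.51) was -1.32 over identities and -1.72 after thinning, from few UMIs. Failing over passing barcodes, the rRNA share of the fresh plate (0.01) was 0.32 for failing barcodes with under 800 transcripts, and that of the MeOH-fixed plate (0.38) turned to -0.04 for the mean of the per-barcode shares. The 4 members past 2-fold in CPM became 8 of 24 with at least 1 UMI in each library and 2 with identities weighted equally. Where no cause is built into the alternative, the cause was not tested. No paired analysis was possible because the groups share only replicate number 1 and no result comes from a test. Leaving out a replicate was not possible either, with 1 library per group. Depth limits the tRNAs and mtNd6 most.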

Other observations

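Within one plate, the shares of single genes also differed between identities. Among MeOH-fixed cells the share of mtNd3 ran from 2.22% of the mitochondrial UMIs in astrocytes and RGLs to 5.11% in microglia, while among fresh cells it ran from 1.40% in OPCs to 2.40% in oligodendrocytes. The share of mtNd1 was highest in immature neurons and lowest in endothelial cells on both plates, with 6.36% and 3.67% in fresh and 7.99% and 4.24% in MeOH-fixed cells. The share of mtAtp6 was highest in oligodendrocytes on both plates, at 17.2% and 22.9%. The part of mt-Rnr1 among the rRNA UMIs was between 16% (endothelial cells) and 27.6% (astrocytes and RGLs) in fresh cells and between 23.7% (nIPCs and neuroblasts) and 30.5% (astrocytes and RGLs) in MeOH-fixed cells. These are values of pooled cells of 1 library per plate.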
